A study of Mus musculus with 21 samples.

Results

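Compounds 9 and 2 are close analogues from a chemical series of CDK8 and CDK19 inhibitors, and their effects on gene expression were compared directly at the same dose and time. Inhibition of these kinases by either compound was not measured on these arrays. The comparison used 3 arrays of organoids treated with compound 9 and 3 of organoids treated with compound 2, each at 2 µM for 24 h, out of 21 arrays in all. The arrays carry the letters A, B and C in both groups and were paired by letter. The 3 vehicle arrays with the same letters are given last as the background. This is 1 pair of compounds, so no adjustment over pairs was needed.

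The cells were mouse small-intestinal organoids, epithelial cultures grown from crypts in Matrigel with epidermal growth factor, Noggin and R-spondin 1. All 3 groups (compound 9, compound 2 and vehicle) carried a human, myc-tagged ΔN89 beta-catenin transgene under tet-O control, with M2-rtTA expressed from the ROSA26 locus. Doxycycline, which switches the transgene on, was present in all 3 groups, so neither compound was tested here without the mutant protein. R-spondin was also in the medium of every group. RNA of each culture (Cy3) was hybridised with Universal Mouse Reference RNA (Cy5), and a level is log2 of sample over reference. Levels can be set against each other between arrays for 1 gene, but not between genes. The labels do not say whether the letters are separate cultures or animals, so the p-values measure only the spread between these samples.

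CDK8 and CDK19 are alternative kinases of Mediator, the complex that links transcription factors to RNA polymerase II, and act together with cyclin C, MED12 and MED13. Beta-catenin joins TCF/LEF factors at Wnt target genes, which maintain stem cells at the base of intestinal crypts. NRF2 is a transcription factor that responds to electrophiles and oxidants and induces the genes of glutathione, NADPH and detoxification.

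The share of spots well above background in the sample channel was 49.4% to 51.9% on the 6 arrays, and 21372 genes were tested. Levels of cell type markers were averaged over lists. These means are ratios to the reference, so they can be set beside each other between arrays but not between lists. They do not test which cells were present. A list of 15 intestinal epithelium markers, all measured, averaged 4.25, 4.32 and 4.12 with compound 9, 4.34, 4.45 and 4.33 with compound 2 and 4.22, 4.39 and 4.24 with vehicle. Fibroblast markers (10 measured of 14) averaged between -5.48 and -5.45 with compound 9, between -5.41 and -5.31 with compound 2 and between -5.53 and -5.35 with vehicle. Leukocyte markers (15 measured of 18) averaged between -2.05 and -1.88 with compound 9, between -1.97 and -1.73 with compound 2 and between -2.01 and -1.96 with vehicle. Endothelial markers (6 of 9) averaged between -0.41 and -0.33 with compound 9, between -0.36 and -0.19 with compound 2 and between -0.42 and -0.35 with vehicle. Of these markers 1 of 10 (Col1a1, -0.46), 3 of 15 (Csf1r, -0.48; Cd4, -0.37; Itgam, -0.28) and 1 of 6 (Tek, -0.35) were lower with compound 9 than with compound 2, none was higher, and their part in the results below was not tested. The 3 leukocyte calls were lost without the letter block described below (adjusted p = 0.132, 0.48 and 0.103), and the other probes of these genes gave differences of -0.10 and 0.28 (Csf1r), 0.05 (Cd4) and 0.26 and 0.17 (Itgam). The calls of Col1a1 and Tek held without the block (adjusted p = 0.00242 and 0.0203), though Tek lost its call in 4 other settings and Col1a1 in none. Compound 9 lay in column 4 of its slide, compound 2 in column 3 and vehicle in column 1 for every letter, so array position and compound cannot be told apart.

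Organoids treated with compound 9 differed from those treated with compound 2 in detoxification, lipid, secretory and some Wnt target genes. Detoxification enzymes such as Cbr3, Gstm1 and Gclc were lower with compound 9, as were the desaturase Scd1, the acute-phase gene Saa2 and the goblet cell regulator Spdef. The sorting receptor Sort1 and some Wnt targets, such as Tnfrsf19, Rnf43 and Axin2, were higher. Of 28 measured Wnt targets 9 were higher, 2 were lower and 17 did not pass. Of 21372 genes, 3387 passed (15.8%; limma with the letter as a block, Benjamini-Hochberg adjusted p under 0.05), 1305 of them higher (6.11%) and 2082 lower (9.74%) with compound 9. A difference of at least 2-fold was seen in 26 higher (0.122%) and 112 lower (0.524%) genes. The median size of the difference in the passing genes was 0.372 on the log2 scale. In the same genes the median size was 0.055 for compound 9 against vehicle and 0.361 for compound 2 against vehicle.

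**Figure D1:**
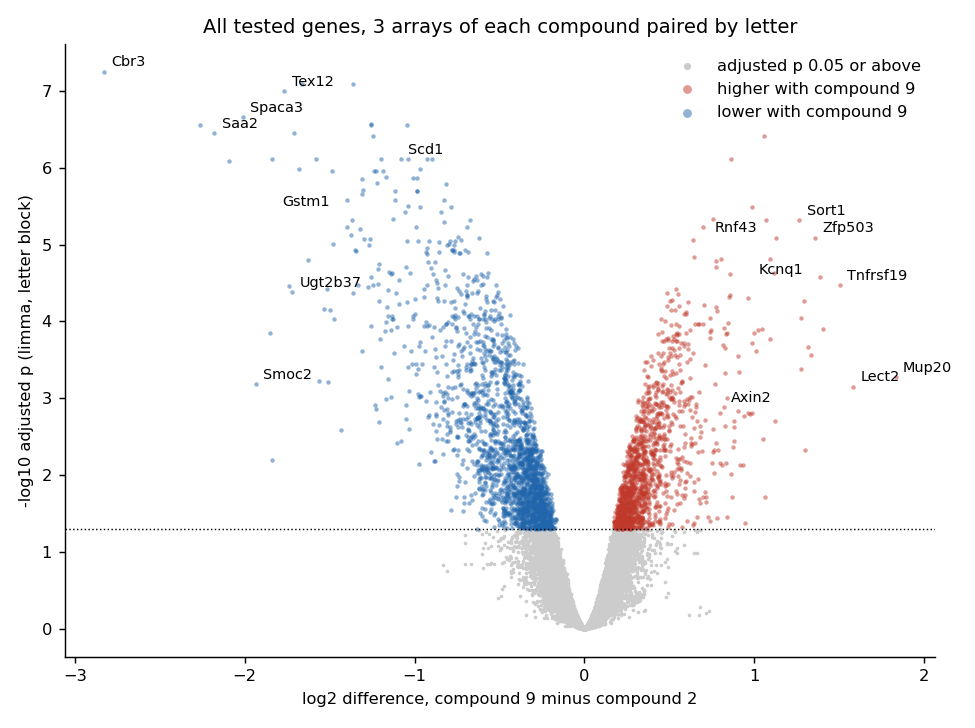
Log2 difference of compound 9 minus compound 2 (horizontal) against -log10 of the adjusted p (vertical) for the 21372 genes tested, with 3 arrays of each compound paired by letter and the dotted line at an adjusted p of 0.05. The 1305 higher genes are to the right and the 2082 lower genes to the left; Cbr3 lies farthest left at -2.83 and Mup20 farthest right among labelled genes at 1.83.

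Without the letter block 1019 genes passed (4.77%), 315 higher (1.47%) and 704 lower (3.29%), all of them among the 3387. The split by direction depended on the scaling of the arrays. In place of 1305 higher and 2082 lower it was 2086 and 1461 when Agilent's own ratios were used, 1685 and 1615 from the Cy3 channel by itself and 1548 and 1586 with the deposited series matrix. The counts of at least 2-fold differences, 26 higher and 112 lower, moved as well. They were 101 and 212 with Agilent's ratios, 21 and 93 with Cy3 alone and 60 and 132 with the series matrix. With a background offset of 16 in place of 50 they were 49 and 155. Lower genes were more numerous in each. Of 175 named genes that passed, 54 lost the call with Agilent's ratios and 36 of 164 with the series matrix, and such losses are given beside the genes described most fully. Groups of 3 arrays did not overlap in 2396 genes with compound 9 above (11.2%) and 2967 with compound 9 below (13.9%), and 2575 of the passing genes were among them. For 98.2% of all genes the 95% interval of the difference lay within 2-fold either way in the main fit. This share was not taken with the other scalings.

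Vehicle gives the background for both compounds. Against vehicle, compound 9 had 1 passing gene (0.00468%; 662 at an unadjusted p under 0.05) and compound 2 had 3692 (17.3%), 2000 higher and 1692 lower. This split too depended on the scaling, with 1392 higher and 2128 lower with Agilent's ratios, 1756 and 2133 with Cy3 alone and 1542 and 1681 with the series matrix. Both of these comparisons use the same 3 vehicle arrays. Without the letter block the counts were 0 for compound 9 (250 at an unadjusted p under 0.05) and 1119 for compound 2. For 99.9% of genes the 95% interval of compound 9 against vehicle lay within 2-fold in the main fit. This share was not taken with other scalings, on which the size of differences depended.

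The 1 gene that passed for compound 9 against vehicle was Cyp3a41b, a cytochrome P450 of the drug-metabolising 3A family. Its level was 6.06, 6.03 and 6.28 with compound 9, against 7.15, 6.71 and 7.07 with compound 2 and 5.20, 4.57 and 4.90 with vehicle. The 3 groups did not overlap, and compound 9 lay between the others. It was higher with compound 9 than with vehicle by 1.24 ± 0.16 (SE, limma adjusted p = 0.0358) and lower than with compound 2 by -0.85 ± 0.16 (adjusted p = 0.00221; 0.343 without the block). Close relatives of this gene exist, so the signal cannot be assigned to it with certainty.

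The largest difference among the named genes was in a detoxification enzyme. Cbr3, a carbonyl reductase that reduces quinones and other carbonyls with NADPH, lay at -1.76, -2.62 and -2.30 with compound 9 (letters A, B and C), against 1.00, 0.08 and 0.72 with compound 2 and -1.89, -2.95 and -2.16 with vehicle. The compound 9 arrays lay with vehicle, and all were below every compound 2 array. Compound 9 was lower than compound 2 by -2.83 ± 0.14 (adjusted p = 5.66e-08), a 7.10-fold difference, and differed from vehicle by 0.10 ± 0.14 (95% interval -0.19 to 0.40). The probe lies on chromosome 16 from 93691120 to 93691179 (mm9). Its neighbour by function Cbr1 was lower by -0.74 ± 0.07 (adjusted p = 7.97e-06).

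Of 30 measured NRF2 targets 17 were lower with compound 9, 1 was higher and 12 did not pass, with a median difference of -0.27 beside -0.004 over all genes. Without the block 12 were lower and none higher. Over all genes 6.11% were higher and 9.74% lower, and 1.47% and 3.29% without the block. The counts of every list below are to be set beside these shares. Lists and members were chosen with earlier results of these data known, so a count above these shares is no evidence by itself. The rate-limiting step of glutathione synthesis is carried out by glutamate-cysteine ligase. Its catalytic subunit gene Gclc lay at 0.88, 1.16 and 1.04 with compound 9, against 1.71, 1.67 and 2.11 with compound 2 and 0.75, 0.96 and 0.70 with vehicle. All compound 9 arrays were below all compound 2 arrays, by -0.80 ± 0.13 (adjusted p = 7.12e-04). The modifier subunit gene Gclm was lower by -0.48 ± 0.07 (adjusted p = 3.96e-04). The aldo-keto reductase Akr1b8 was lower by -1.20 ± 0.18 and Osgin1, an oxidative stress-induced growth inhibitor, by -0.74 ± 0.12. Among NADPH-producing enzymes, G6pdx, the first enzyme of the pentose phosphate pathway, was lower by -0.44 ± 0.09 and malic enzyme, Me1, by -0.70 ± 0.08 (adjusted p = 0.109 without the block). Nqo1, the NADPH quinone reductase often used to read out NRF2, was lower by -0.39 ± 0.11 (adjusted p = 0.0203; 0.243 without the block, 0.0675 with Agilent's ratios, 0.0751 with Cy3 alone and 0.063 with the series matrix), and its groups overlapped. The exception was the peroxiredoxin Prdx1, which was higher with compound 9 by 0.42 ± 0.08 (0.11 without the block).

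Promoters of these genes were searched for the core of the antioxidant response element, TGACNNNGC, the site bound by NRF2, in windows of 250 bases before to 50 bases after the start (RefSeq, GRCm38.p6), on both strands. Overlap with other motifs was not looked at. Of 24 measured NRF2 targets with a window 10 held a match, and of the 15 of them that were lower 6 did, where 12.4% of all 32851 windows held one. Some genes have several windows, so counts of genes and the share of windows are unlike measures. Matches were also held by Prdx1, which was higher, and by Abcc4, Srxn1 and Txnrd1, which did not pass. Cbr3 and Gstm1, with the largest differences of the list, held no match in their windows, and Gclc was not in the table. Shown are 120 bases upstream of the start of 3 genes that were lower, with the match in capitals, since they stand for the members of the list that carry it, for glutathione synthesis, NADPH supply and glutathione transfer. They lie at chr3:122245367-122245486 (plus strand) for Gclm, chrX:74428881-74429000 (minus strand) for G6pdx and chr1:21240408-21240527 (plus strand) for Gsta3.
Gclm: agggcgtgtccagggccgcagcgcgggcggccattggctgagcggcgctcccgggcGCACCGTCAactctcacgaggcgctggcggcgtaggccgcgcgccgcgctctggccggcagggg
G6pdx: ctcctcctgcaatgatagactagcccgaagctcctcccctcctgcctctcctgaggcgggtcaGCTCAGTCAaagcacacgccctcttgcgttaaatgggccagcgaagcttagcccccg
Gsta3: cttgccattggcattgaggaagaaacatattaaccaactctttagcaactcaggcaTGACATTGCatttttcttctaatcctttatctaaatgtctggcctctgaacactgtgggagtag
The match in Gclm and in G6pdx is on the strand opposite to the gene. These are matches of letters, not sites shown to be bound.

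Glutathione transferases, which join glutathione to electrophiles, were lower with compound 9 in 9 of 24 measured members and higher in none, with a median of -0.13. Of the 9, 3 are also on the NRF2 list. Without the block 6 were lower. Gstm1 lay at 2.56, 2.67 and 2.47 with compound 9, against 3.96, 3.86 and 4.07 with compound 2 and 1.92, 1.93 and 1.71 with vehicle. The 3 groups did not overlap and compound 9 lay between the others. The difference between the compounds was -1.40 ± 0.12 (adjusted p = 2.65e-06), and that of compound 9 to vehicle was 0.71 ± 0.12, which did not pass (adjusted p = 0.229). Gstm4 followed the same order, at 3.65, 3.76 and 3.46 with compound 9, 4.96, 4.79 and 4.93 with compound 2 and 2.98, 3.08 and 3.09 with vehicle. It was lower by -1.27 ± 0.12 (adjusted p = 9.99e-06), though its other probe lay at -0.43. The mapped position of the Gstm1 probe used is on chromosome 5, while its other probe, on chromosome 3 beside the other Gstm genes, gave -1.29. Signals of genes this similar cannot be assigned to 1 gene with certainty. Gstm3 and Gstm5 did not pass (-0.03 and -0.07).

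**Figure D2:**
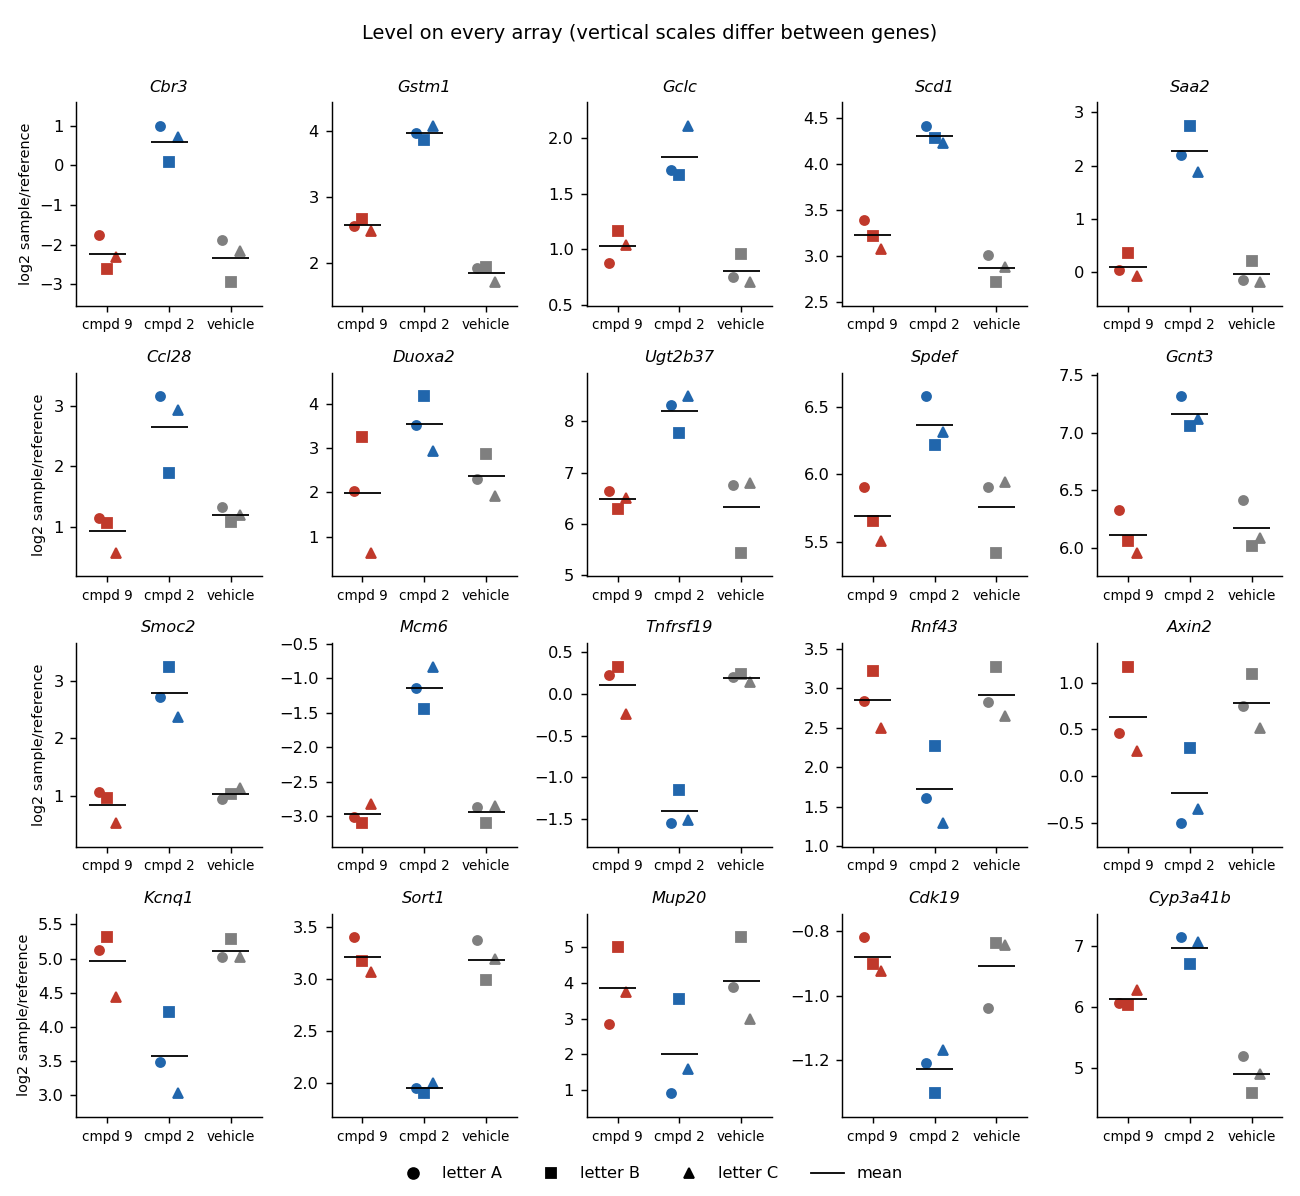
Level of 20 genes (log2 sample over reference, vertical, scales differ) on each array of compound 9, compound 2 and vehicle, with letters as symbols and the group mean as a line. Compound 9 arrays lie beside vehicle in most panels, as for Cbr3 (means -2.23 with compound 9, 0.60 with compound 2 and -2.34 with vehicle), and between compound 2 and vehicle for Gstm1 and Cyp3a41b.

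Of 27 measured carbonyl reductases, aldo-keto reductases and alcohol and aldehyde dehydrogenases, 12 were lower with compound 9 and 1 was higher (median -0.20; 9 lower and none higher without the block). This list shares 4 members with the NRF2 list, Cbr3, Cbr1 and Akr1b8 among them, all 4 lower, and of its other 23 members 8 were lower and 1 higher. Lower members included Aldh1a1, a retinaldehyde dehydrogenase, at -0.64 ± 0.08 (adjusted p = 1.17e-04), the hydroxysteroid dehydrogenase Akr1c18 at -0.61 ± 0.11 (-1.11 and not passing with Agilent's ratios or the series matrix) and the alcohol dehydrogenase Adh7 at -0.62 ± 0.15 (adjusted p = 0.493 without the block and 0.0539 with Cy3 alone). Cbr4, a mitochondrial carbonyl reductase, was the higher one at 0.34 ± 0.08 (0.139 without the block). Of 22 measured cytochromes P450, 2 were higher and 3 lower, near the shares over all genes, and 5 were higher and 2 lower with Cy3 alone. Among them Cyp2c70, which makes muricholic bile acids in mouse liver, was higher by 1.05 ± 0.14 (adjusted p = 1.24e-04).

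Genes of fatty acid synthesis were lower with compound 9 in 9 of 25 measured members and higher in none (median -0.20; 4 lower without the block). Scd1, the desaturase that makes monounsaturated fatty acids, lay at 3.39, 3.22 and 3.07 with compound 9, against 4.42, 4.28 and 4.23 with compound 2 and 3.01, 2.71 and 2.88 with vehicle. The compound 9 arrays were all below the compound 2 arrays, by -1.08 ± 0.08 (adjusted p = 7.77e-07), and all above the vehicle arrays, by 0.36 ± 0.08, which did not pass (adjusted p = 0.68). The elongase Elovl6 was lower by -0.51 ± 0.07. Cholesterol synthesis and uptake had 4 lower members of 24 and none higher, beside 9.74% lower over all genes. Among the 4 was Insig1, which holds back the sterol sensor in the endoplasmic reticulum, at -0.58 ± 0.14 (adjusted p = 0.0668 without the block).

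Acute-phase and defence genes were lower in 9 of 21 measured members (median -0.28; 4 without the block). Saa2, a serum amyloid A protein, lay at 0.03, 0.35 and -0.08 with compound 9, against 2.20, 2.75 and 1.89 with compound 2 and -0.15, 0.21 and -0.20 with vehicle. Its probe was well above background on 1 of 3 compound 9 arrays on 3 of 3 compound 2 arrays and on 0 of 3 vehicle arrays, and the 2 compound groups did not overlap (-2.18 ± 0.14, adjusted p = 3.58e-07). The size of this difference depended on the scaling, from -5.03 with Agilent's ratios to -1.42 with Cy3 alone. Its direction and call held in every scaling with a value for it, but the series matrix gave none. Its paralogue Saa1 was lower by -0.96 ± 0.08, and Saa3 did not pass (0.08). Ccl28, a mucosal chemokine that attracts IgA plasma cells, lay at 1.14, 1.06 and 0.57 with compound 9, against 3.16, 1.88 and 2.93 with compound 2 and 1.33, 1.08 and 1.19 with vehicle. The difference was -1.74 ± 0.20 (adjusted p = 3.50e-05), smaller in letter B (-0.83) than in letters A (-2.02) and C (-2.36). From the series matrix Ccl28 lay at -2.93 and did not pass (adjusted p = 0.16). Duoxa2, the maturation factor of the hydrogen peroxide-producing oxidase DUOX2, was lower by -1.56 ± 0.25 (adjusted p = 5.96e-04; 0.0521 without the block, 0.173 with Agilent's ratios and 0.292 with the series matrix), and its groups overlapped. Its other probe, above background on 4 of the 6 arrays, gave -0.53. Duox2 itself did not pass, at -0.19. The epithelial cytokine gene Il18 was lower by -1.38 ± 0.13 (adjusted p = 7.61e-06; 0.0582 without the block).

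Goblet cells secrete the mucus of the crypt and villus. Of 22 measured goblet cell genes 11 were lower with compound 9 and none higher, with a median of -0.40 and 4 lower without the block. The count of lower genes was 6 with Agilent's ratios, 7 of 21 with the series matrix and 15 with Cy3 alone. Spdef, the transcription factor that drives goblet cell maturation, lay at 5.91, 5.65 and 5.51 with compound 9, against 6.58, 6.22 and 6.31 with compound 2 and 5.91, 5.42 and 5.95 with vehicle. The compound 9 arrays were all below the compound 2 arrays, by -0.68 ± 0.11 (adjusted p = 8.81e-04). Gcnt3, which branches the sugar chains of mucins, lay at 6.33, 6.06 and 5.96 with compound 9, against 7.32, 7.06 and 7.12 with compound 2 and 6.42, 6.02 and 6.08 with vehicle. Its difference of -1.04 ± 0.07 (adjusted p = 2.81e-07) was similar in every letter (-0.99, -0.99 and -1.16). The potassium channel Kcnk6 was lower by -0.99 ± 0.15 and Agr2, a disulphide isomerase needed for mucin folding, by -0.26 ± 0.07 (0.151 without the block; -0.81 with Cy3 alone). In RNA of whole cultures, fewer cells of a type and less RNA per cell cannot be told apart.

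Paneth, tuft and enteroendocrine cells showed smaller counts of lower genes than goblet cells. Of 18 Paneth cell genes 3 were lower and none higher, where 9.74% of all genes were lower. The 3 included Nupr1 (-0.81 ± 0.08) and Cd24a (-0.80 ± 0.09), and between 2 and 5 Paneth cell genes were lower with other scalings. Of 16 tuft cell genes 6 were lower, with the cyclooxygenase Ptgs1 at -1.01 ± 0.08 (adjusted p = 0.071 without the block), and of 26 enteroendocrine genes 7 were lower. Only 11 of the 26 were well above background on all 3 compound 9 arrays, and 11 on all 3 compound 2 arrays. The groups did not overlap in 1 enteroendocrine gene with compound 9 below (13.9% of all genes) and in 3 with compound 9 above (11.2%). None of these tuft and enteroendocrine calls held without the block. With Agilent's ratios 2 tuft and 5 enteroendocrine genes were lower, with Cy3 alone 4 and 4, and with the series matrix 5 of 13 and 3 of 16. Chgb, a granin of hormone granules, lay at 5.49, 2.77 and 4.00 with compound 9, against 6.17, 4.11 and 5.61 with compound 2 and 5.48, 2.89 and 4.84 with vehicle. Letter B was lowest in all 3 groups, and within each letter compound 9 was below compound 2 (mean -1.21 ± 0.14, adjusted p = 5.38e-05; 0.308 without the block).

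Of 30 enterocyte genes 12 were lower and none higher (median -0.22; 2 lower without the block), such as the peptide transporter Slc15a1 at -0.62 ± 0.14 (adjusted p = 0.183 without the block) and the glucose transporter Slc2a2 at -0.62 ± 0.15 (0.0774 without the block and 0.198 with Agilent's ratios). This list depended on the scaling, with none higher and 5 lower with Agilent's ratios, none higher and 5 lower of 29 with the series matrix, and 2 higher and 11 lower with the Cy3 channel alone. Intestinal epithelium markers likewise had 4 lower and none higher of 15 (median -0.15), but 1 higher and 1 lower with Agilent's ratios and 3 higher and 2 lower (median 0.07) with the Cy3 channel alone. The list of fetal-like epithelium and YAP targets had 4 lower members of 18, beside 9.74% lower over all genes. It was led by the surface antigen Ly6a at -0.98 ± 0.08 (adjusted p = 2.02e-06).

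**Figure D3:**
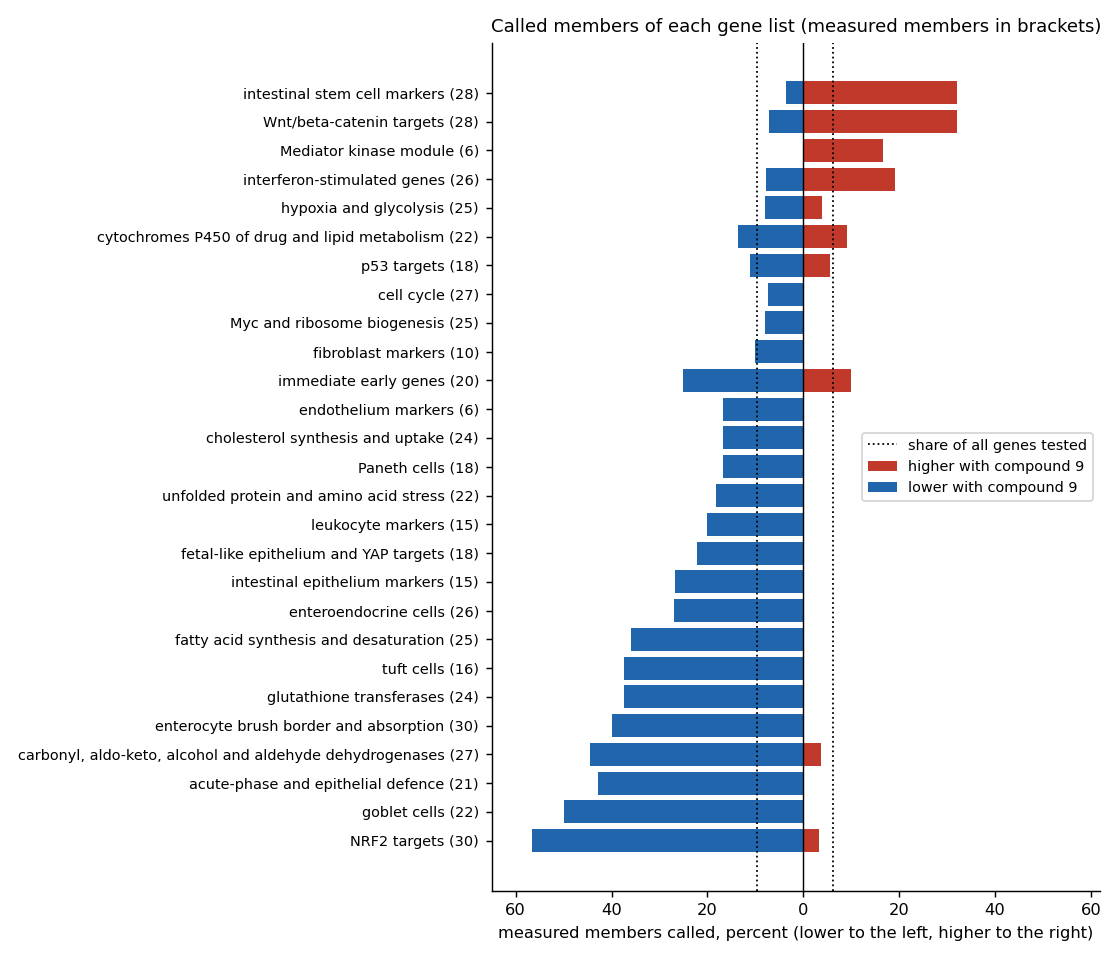
Percent of the measured members of each of 27 gene lists that passed, higher with compound 9 to the right and lower to the left, with the number measured in brackets. Dotted lines mark the shares over all genes, 6.11% higher and 9.74% lower; NRF2 targets (17 lower and 1 higher of 30) are at the bottom and stem cell markers (9 higher and 1 lower of 28) at the top.

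Wnt target genes were higher with compound 9 in 9 of 28 measured members and lower in 2, with a median of 0.006 beside -0.004 over all genes. Without the block 4 were higher and none lower. With Agilent's ratios 6 were higher and 1 lower, with Cy3 alone 7 and none, and with the series matrix 5 and 1 of 24. The stem cell markers described below share 10 members with this list, and of the other 18 members 3 were higher and 2 lower. Feedback inhibitors of the pathway were among the members that were higher. Rnf43, a ubiquitin ligase that removes Wnt receptors, lay at 2.84, 3.22 and 2.50 with compound 9, against 1.61, 2.27 and 1.29 with compound 2 and 2.82, 3.27 and 2.65 with vehicle. The groups of the compounds did not overlap and compound 9 lay with vehicle, a difference of 1.13 ± 0.11 (adjusted p = 8.12e-06). Axin2, the scaffold that promotes beta-catenin destruction, lay at 0.46, 1.17 and 0.27 with compound 9, against -0.51, 0.30 and -0.35 with compound 2 and 0.75, 1.10 and 0.51 with vehicle. It was higher in 3 of 3 letters, by 0.82 ± 0.14 (adjusted p = 0.0013; 0.0684 without the block), although the groups overlapped and its probe was well above background on 1 of 3 compound 2 arrays. From the series matrix the difference was 2.51 (adjusted p = 0.0578). The other Axin2 probe was not above background on any of the 6 arrays. Nkd2, an antagonist of Dishevelled, was higher by 0.44 ± 0.08, and Znrf3, the paralogue of Rnf43, by 0.30 ± 0.09 (adjusted p = 0.186 without the block and 0.0995 with Cy3 alone; 0.87 on the log2 scale with Agilent's ratios).

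Tnfrsf19, a receptor of crypt base cells also called Troy, lay at 0.23, 0.33 and -0.25 with compound 9, against -1.55, -1.15 and -1.51 with compound 2 and 0.20, 0.23 and 0.14 with vehicle. It was higher with compound 9 by 1.51 ± 0.17 (adjusted p = 3.36e-05), and by 2.78 with Agilent's ratios. Its other probe, above background on 2 of the 6 arrays, gave 0.35. Among transcription factors, Sox9 of crypt progenitors was higher by 0.88 ± 0.18 (0.154 without the block), Ascl2 of stem cells by 0.74 ± 0.23 (adjusted p = 0.0398; 0.309 without the block) and Tcf7 by 0.39 ± 0.09 (other probe 0.03). The call of Tcf7 was lost with Agilent's ratios (0.84, adjusted p = 0.0845), Cy3 alone and the series matrix, and that of Ascl2 with Agilent's ratios (0.64, adjusted p = 0.225) and the series matrix and when an array other than compound 2 B was left out, as with compound 2 A (0.51, adjusted p = 0.258). Lef1 (0.27, 95% interval 0.04 to 0.49), Myc (0.02, -0.37 to 0.42) and Lgr5, the stem cell receptor (-0.10, -1.04 to 0.84), did not pass. The interval of Lgr5 spans a 2-fold difference, and that of Myc does not. Ctnnb1, beta-catenin itself, differed by -0.08 (-0.19 to 0.03), and whether its mouse probe also reads the human transgene was not tested.

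Windows of the Wnt list were searched for CTTTGAT, the core site of TCF/LEF factors, on both strands and with overlap to other motifs not looked at. Of 18 measured members with a window 3 held it, and of the 7 of them that were higher 2 did, Tnfrsf19 and Sp5, where 3.73% of all windows held it. The other match was in Tgif1, which did not pass. Counts of genes and the share of windows are again unlike measures. Tnfrsf19 and Sp5 are shown with the match in capitals, as the members of this list that were higher and carry it upstream of a start. They lie at chr14:61038118-61038237 (minus strand) for Tnfrsf19, where the match is on the strand opposite to the gene, and chr2:70474763-70474882 (plus strand) for Sp5 (RefSeq, GRCm38.p6).
Tnfrsf19: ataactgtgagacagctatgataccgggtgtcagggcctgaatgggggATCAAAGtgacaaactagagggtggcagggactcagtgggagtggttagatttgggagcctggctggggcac
Sp5: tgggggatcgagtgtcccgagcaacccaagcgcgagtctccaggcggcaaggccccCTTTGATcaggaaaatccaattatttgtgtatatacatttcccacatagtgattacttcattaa
Sp5, a zinc finger repressor downstream of Wnt, was higher by 0.57 ± 0.18 (adjusted p = 0.0473; 0.555 without the block, 0.142 with Agilent's ratios and 0.0851 with Cy3 alone), on a probe well above background on 2 of 3 compound 9 and 1 of 3 compound 2 arrays.

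**Figure D4:**
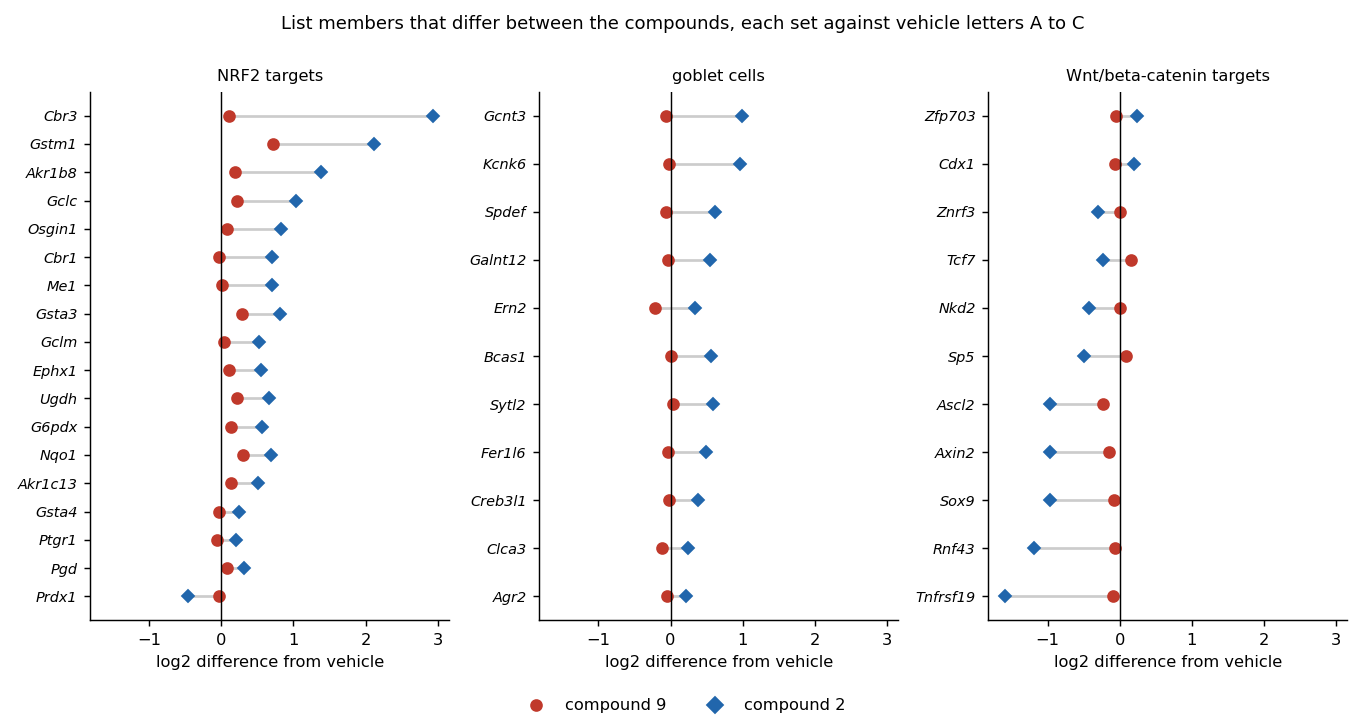
Log2 difference from vehicle (horizontal) of compound 9 (circles) and compound 2 (diamonds) for the passing members of the NRF2, goblet cell and Wnt lists; the members were chosen by the difference between the compounds, and both symbols use the same 3 vehicle arrays. Cbr3 lies at 0.10 and 2.93, Gcnt3 at -0.06 and 0.99 and Tnfrsf19 at -0.09 and -1.59 for compound 9 and compound 2.

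Stem cell markers, which share 10 members with the Wnt list, 6 of them higher, were higher in 9 of 28 and lower in 1 (median 0.07; 4 higher and 1 lower without the block). Kcnq1, a potassium channel of crypt secretion, lay at 5.13, 5.32 and 4.44 with compound 9, against 3.48, 4.21 and 3.03 with compound 2 and 5.02, 5.29 and 5.02 with vehicle. It was higher by 1.39 ± 0.15 (adjusted p = 2.65e-05), and its other probe gave 1.46. Bmi1, a Polycomb protein, was higher by 0.61 ± 0.07 and Cdca7 by 0.87 ± 0.21 (0.0603 without the block). Smoc2, a matrix protein of the crypt base, was the member that went the other way, at 1.05, 0.95 and 0.52 with compound 9, against 2.71, 3.24 and 2.37 with compound 2 and 0.95, 1.03 and 1.14 with vehicle. It was lower by -1.93 ± 0.31 (adjusted p = 6.52e-04).

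Sort1, which encodes the sorting receptor sortilin, lay at 3.40, 3.17 and 3.07 with compound 9, against 1.94, 1.90 and 2.00 with compound 2 and 3.37, 2.99 and 3.19 with vehicle. The groups of the compounds were far apart, at 1.27 ± 0.11 (adjusted p = 4.83e-06). Its other probes gave 0.70 and -0.06, so the probes of this gene disagree. Runx1, a transcription factor, was lower with compound 9 by -1.16 ± 0.13, with -0.86 on its other probe, and the growth factor Fgf18 by -1.05 ± 0.11, with -1.06 on its other probe.

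Genes of the Mediator kinase module differed by less than 2-fold between the compounds. Cdk19 lay at -0.82, -0.90 and -0.92 with compound 9, against -1.21, -1.30 and -1.17 with compound 2 and -1.04, -0.84 and -0.84 with vehicle. It was higher by 0.34 ± 0.08 (adjusted p = 0.00839; 0.0539 without the block, 0.0733 without compound 9 A and 0.065 without compound 2 B). Cdk8 differed by -0.16 (95% interval -0.30 to -0.02, adjusted p = 0.11), Ccnc, cyclin C, by 0.12 (-0.07 to 0.31), Med12 by 0.05 (-0.09 to 0.20) and Med13 by 0.005 (-0.15 to 0.16), and none of these passed. All of these intervals lie well within 2-fold.

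The 15 largest differences in each direction ran from -2.83 to -1.52 and from 1.06 to 1.83. All of them had the same sign in 3 of 3 letters, as the rule for naming them required. Against vehicle, the 15 lower genes lay between -0.39 and 0.15 with compound 9 and between 1.18 and 2.93 with compound 2, and the 15 higher genes between -0.51 and 0.07 with compound 9 and between -2.02 and -1.02 with compound 2. Without the block 14 of the lower and 9 of the higher genes passed. With Agilent's ratios 10 of the lower and 12 of the higher genes passed, and with the series matrix 7 of 10 and 10 of 14 that had a value.

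**Figure D5:**
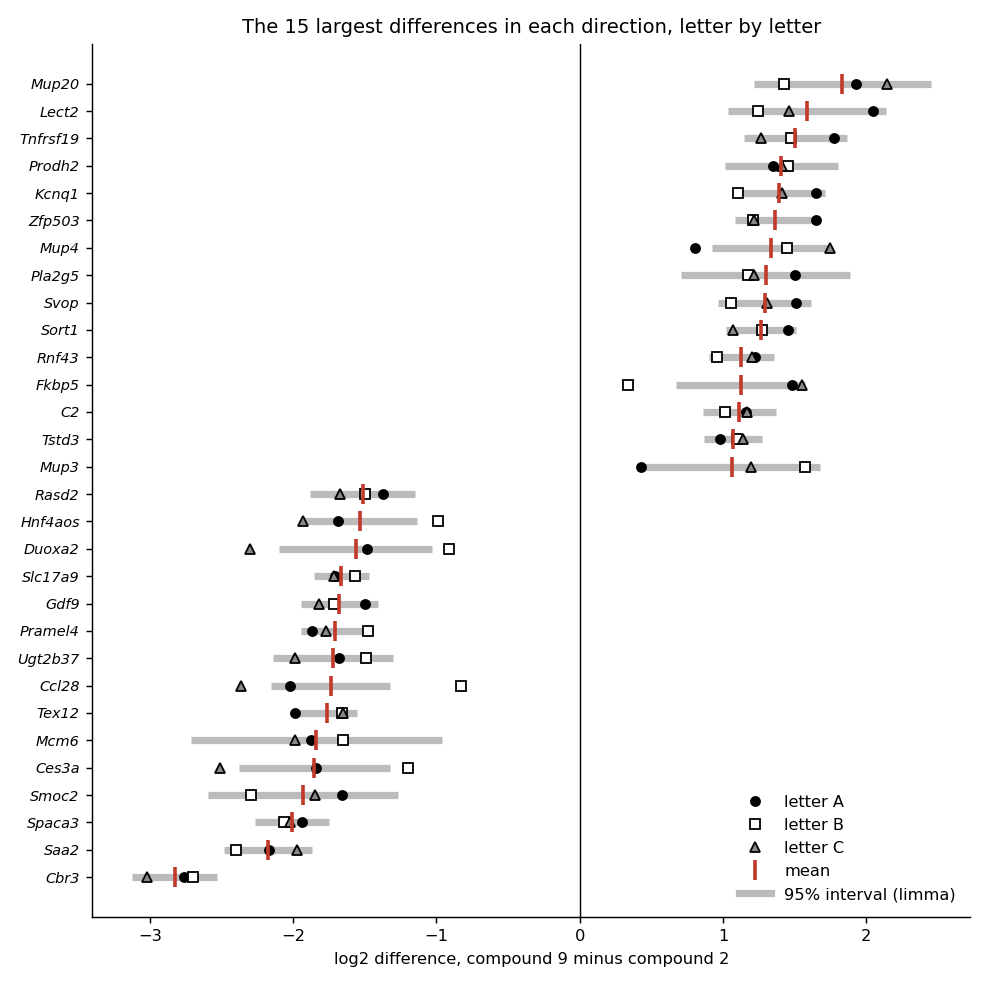
Log2 difference of compound 9 minus compound 2 (horizontal) in letters A, B and C for the 15 largest differences in each direction, with the mean as a red tick and the 95% interval as a grey bar. Letters lie close together for Cbr3 (-2.76, -2.70 and -3.02) and farther apart for Ccl28 and Fkbp5.

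Among the lower genes, Spaca3, a lysozyme-like protein of sperm, lay at 2.09, 1.36 and 1.81 with compound 9, against 4.03, 3.43 and 3.83 with compound 2 and 2.25, 1.13 and 1.96 with vehicle. Tex12, a component of the synaptonemal complex of meiosis, lay at 0.42, 0.56 and 0.44 with compound 9, against 2.41, 2.21 and 2.09 with compound 2 and 0.55, 0.44 and 0.38 with vehicle. Both pairs of groups were separate, at -2.01 ± 0.12 and -1.77 ± 0.10 (adjusted p = 2.20e-07 and 1.01e-07). With Agilent's ratios Spaca3 did not pass (-1.10, adjusted p = 0.28), and Tex12 lay at -3.01 with them and at -1.09 with Cy3 alone. Gdf9, an oocyte growth factor, was lower by -1.68 ± 0.13 and Pramel4 by -1.71 ± 0.11 (-2.90 with Agilent's ratios and -1.01 with Cy3 alone). The replication helicase subunit Mcm6 was lower by -1.84 ± 0.41 (adjusted p = 0.0064; 0.0631 without letter A and 0.0605 without letter C), whereas Mcm2, Mcm3, Mcm4, Mcm5 and Mcm7, which form a ring with it, lay between -0.30 and 0.03 and did not pass. Of 27 cell cycle genes 2 were lower (Mcm6 and Pcna, -0.58 ± 0.15) and none higher, smaller shares than over all genes. Slc17a9, the vesicular nucleotide transporter, was lower by -1.66 ± 0.09, the carboxylesterase Ces3a by -1.85 ± 0.25 (-0.69 and not passing with Agilent's ratios), the Ras-like Rasd2 by -1.52 ± 0.17 and Hnf4aos (0610008F07Rik on the array), an antisense transcript of Hnf4a, by -1.54 ± 0.19. Hnf4aos did not pass with Agilent's ratios (-0.73, adjusted p = 0.407) or the series matrix (-0.47, adjusted p = 0.694).

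Ugt2b37, a glucuronosyltransferase that conjugates drugs and steroids, lay at 6.64, 6.28 and 6.50 with compound 9, against 8.33, 7.77 and 8.49 with compound 2 and 6.75, 5.44 and 6.79 with vehicle. The compound groups did not overlap (-1.72 ± 0.20, adjusted p = 4.13e-05), but Ugt2b37 did not pass with Agilent's ratios (-0.74, adjusted p = 0.288). Its probe and that of Ugt2b5 (-1.48) share an 18-base run, and whether each also reads the other gene was not tested. The run is of chromosome 5 and is shown because it limits which paralogue the value belongs to.
Ugt2b37 and Ugt2b5: aactttcagcctcattct

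Among the higher genes, Mup20, a major urinary protein that binds pheromones, lay at 2.84, 4.98 and 3.74 with compound 9, against 0.92, 3.55 and 1.59 with compound 2 and 3.88, 5.27 and 2.98 with vehicle. Letter B was highest in every group and the groups overlapped, but within each letter compound 9 was above compound 2, by 1.93, 1.43 and 2.15. The mean was 1.83 ± 0.29 (adjusted p = 5.32e-04; 0.18 without the block, 0.11 with Agilent's ratios and 0.124 with the series matrix). Mup4 followed at 1.33 ± 0.19 and Mup3 at 1.06 ± 0.29, neither of which passed without the block (adjusted p = 0.329 and 0.519). The Mup3 probe was well above background on 1 of 3 compound 2 arrays. The probes of Mup20 and Mup4 share a 24-base run on chromosome 4, shown for the same reason, and their signals cannot be assigned with certainty.
Mup20 and Mup4: aagttctgtgatctgctttccatc

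Lect2, a secreted protein made mainly by liver, lay at 2.57, 3.02 and 1.77 with compound 9, against 0.52, 1.78 and 0.31 with compound 2 and 2.72, 2.50 and 2.49 with vehicle. It was higher by 1.58 ± 0.26 (adjusted p = 7.09e-04), and did not pass with Agilent's ratios (1.24, adjusted p = 0.121) or the series matrix (1.22, adjusted p = 0.224). Fkbp5, a co-chaperone of the glucocorticoid receptor, was higher by 1.12 ± 0.21, with 1.48, 0.34 and 1.55 in letters A, B and C (adjusted p = 0.115 without the block). The zinc finger repressor Zfp503 was higher by 1.36 ± 0.13, with 0.66 on its other probe, the complement protease C2 by 1.11 ± 0.12 and the vesicle protein Svop by 1.29 ± 0.15. The proline metabolism enzyme Prodh2 (1.41 ± 0.18) and the secreted phospholipase Pla2g5 (1.30 ± 0.28) did not pass without the block (adjusted p = 0.376 and 0.0854) or with the series matrix (0.203 and 0.247), nor did Prodh2 with Agilent's ratios (0.173). The other Pla2g5 probe, above background on 3 of the 6 arrays, gave 0.20. Tstd3 was higher by 1.07 ± 0.10.

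Of 26 interferon-stimulated genes 5 were higher with compound 9, where 6.11% of all genes were, and 2 were lower, a smaller share than the 9.74% of all genes (median 0.13; none passed without the block). Mx2, an antiviral GTPase, was higher by 0.83 ± 0.12 and Ifit3 by 0.68 ± 0.13, while Ifit1 was lower by -0.72 ± 0.12. Of 20 immediate early genes 2 were higher and 5 lower (3 lower with Agilent's ratios, and 1 higher and none lower without the block). Unfolded protein genes had 4 lower members of 22, beside 9.74% lower over all genes, but 1 with Agilent's ratios and none without the block. Near or below the shares over all genes were p53 targets (1 higher and 2 lower of 18), Myc and ribosome biogenesis genes (2 lower of 25) and hypoxia and glycolysis genes (1 higher and 2 lower of 25). The last list depended on the scaling, with 8 higher and 1 lower of 25 with Agilent's log ratios.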

How the data were processed

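Per the file headers, the arrays were scanned and quantified by the authors with Agilent Feature Extraction 10.7.3.1, with probe positions of mm9. The deposited scanner files hold mean and background intensity of both channels and a log10 ratio of reference over sample. A deposited table of the series gives log2 of sample over reference, whose making is not given in these sources.

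Of 62976 spots, 3671 control spots were left out and 157 non-uniform spots were set to missing over all arrays; none was saturated. Intensities were corrected with normexp (offset 50) and loess-normalised in R 4.3.3 with limma 3.58.1. Of 55681 probes, 29631 had Cy3 signal well above background on 3 or more arrays, and the brightest stood for each of 21372 genes (5768 with several probes; 13793 matched RefSeq by accession). One limma model of all 21 arrays held group and letter. Tests were two-sided, with Benjamini-Hochberg adjustment over all genes at 0.05, and ± is the SE of the difference. Figures used Python 3.11.15 and matplotlib 3.10.9.

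Letters were taken as pairs because the rule of the comparison pairs them. Deviations from the group means of compound 9 and compound 2 correlated at 0.551, 0.743 and 0.679 for the same letter (A, B and C) and between -0.559 and -0.08 for different letters. Taking out the group mean of 3 arrays itself pushes the values for different letters down, so this contrast is partly built in. Within each letter the 2 compounds lay in the same row of the same slide, so letter and slide row cannot be told apart. No 2 arrays were identical (highest correlation 0.996).

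Named genes are the 15 largest differences in each direction among passing genes with the same sign in every letter, an approved symbol matched to RefSeq and signal on at least 3 of the 6 arrays, then passing members of 27 gene lists and a fixed set of Wnt, Mediator and detoxification genes. Members and lists were chosen with earlier results of these data known, and support nothing by their choice. Genes that did not pass beside a family (Gstm3, Gstm5, Saa3, Duox2, Mcm2 to Mcm7), Cyp3a41b and Ugt2b5 were named after their values were seen. Alternatives covered the block, the arrays used, background correction, scaling, dim probes, probe choice and leaving out arrays.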

Additional observations from a re-analysis of the deposited data

How the results depend on the processing

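The count of 3387 genes was 1018 with the slide as the block in place of the letter and 1019 without a replicate block. It lay between 2478 and 4386 within the slide of letters A and B, on the 6 or 9 arrays alone, with other scalings, filters or probe rules. Leaving out arrays gave 1478 to 2247: 2081, 2247 and 2140 without compound 9 A, B and C, 1915, 2240 and 2117 without compound 2 A, B and C, and 1478, 1892 and 1782 without every array of letter A, B and C. The percent of passing genes that were higher, 38.5, was 30.9 without the block, 30.6 with the slide, 42.7 within the slide of letters A and B, 58.8 with Agilent's log ratio, 40.9 with offset 16, 51.1 with Cy3 alone, 49.4 with the series matrix, 36.2 without a filter on dim probes and 30.4 to 43.0 without arrays. For compound 9 against vehicle the count was 7 with Cy3 alone, 0 without the block, with the slide, within the slide, with Agilent's log ratio, offset 16 and the series matrix, and 0 to 2 without arrays. For compound 2 against vehicle, 3692, it was 1119 without the block, 1171 with the slide and 1518 to 3579 without arrays (2016, 2379 and 2379 without compound 2 A, B and C; 1518, 2095 and 2288 without letters A, B and C). Causes were not tested. Of 175 passing named genes, 102 lost the call without the block and none turned direction; letter C alone has 1 array a group and no test. Directions turned for Apoc3 (0.004 with Agilent's log ratio, 0.444 with Cy3 alone), Cyp4f14 (0.135 and 0.392) and Fabp2 (0.035, Agilent), with Cy3 alone for Alpi (0.277), Cdhr5 (0.195), Cdx1 (0.331), Fabp1 (0.032), Ghrl (0.392) and Mgam (0.006), for Pax4 (0.036, series matrix), Itgam (0.047) and Med12 (-0.001) with the mean of probes, for Usp18 (-0.032), Ccnc (-0.015) and Med13 (-0.121) in letter C alone, and for Myc within the slide (-0.032). Without arrays Myc ranged from -0.032 to 0.093, Med13 from -0.060 to 0.082 and Lgr5 from -0.199 to 0.044. The 3 arrays a group limit the precision, and probes near background, such as those of Axin2, Sp5 and Saa2, carry less.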

Other observations

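Gene families that were not lists of their own were described after their values were seen. Their counts are to be set beside 6.11% higher and 9.74% lower over all genes (1.47% and 3.29% without the block). Family counts were not taken with other scalings, and Ugt2b37 and Ces3a did not pass with Agilent's ratios. All 7 measured Ugt2b glucuronosyltransferases were lower with compound 9 than with compound 2 (5 without the block), from -1.72 to -0.36, with Ugt2b35 at -1.15 and Ugt2b38 at -0.59. Their median against vehicle was 0.04 with compound 9 and 0.55 with compound 2. Of 15 carboxylesterases 8 were lower and none higher (3 lower without the block), among them Ces3b at -1.21, Ces1c at -1.08 and Ces2g at -1.04, and the other 7 lay between -0.27 and -0.12. Members of both families are similar in sequence, so single members cannot be assigned with certainty.

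Of 8 Cyp3a genes 4 were lower (1 without the block) and none higher, beside 9.74% lower over all genes. One of the family, Cyp3a11, is also a member of a list described above. The family had a median against vehicle of 0.26 with compound 9 and 0.69 with compound 2. Cyp3a59 averaged 7.85 with compound 9, 8.32 with compound 2 and 7.27 with vehicle. Cyp2c55 averaged 4.12 with compound 9, 4.50 with compound 2 and 2.97 with vehicle, and did not pass between the compounds (-0.38, adjusted p = 0.369). Neither Cyp3a59 nor Cyp2c55 passed for compound 9 against vehicle, where Cyp3a41b was the only passing gene. Of 6 Mup genes 5 were higher, beside 6.11% over all genes, and 1, Mup2 (-0.32), was lower, none of them without the block.

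Long non-coding regions, named on the array by coordinates, are set beside the 15.8% of all genes that passed. Of 2729 tested, 33 were higher and 186 lower (8.02%), and the difference between these shares was not tested.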
